A study of Mus musculus with 20 samples.

Results

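This account follows 8 genes of BDNF signalling through the amygdala of mice whose forebears had or had not been stressed. They were the neurotrophins Bdnf and Ntf3, the receptors Ntrk2, Ntrk3, Ngfr and Sort1, and the transcription factors Creb1 and Crem. They were chosen by gene symbol, and each matched 1 of the 29671 rows of the gene table. All 8 were among the 16727 genes that had enough counts to be tested, although Ntf3 lay near the bottom of that range. The rule itself used only gene symbols, although earlier results of these data were known when it was set.

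The samples were bilateral amygdala punches of 1.2 mm from 20 behaviourally naive male C57B6 mice at postnatal day 84, bred in house from a Taconic strain. The 4 groups of 5 mice were the stress lineage and the no-stress lineage, each in the F1 and in the F2. The lineage is that of forebears put through chronic unpredictable stress, which the title places in adolescence, or left without it; the sampled mice were not described as stressed themselves. The labels do not say which parent carried the lineage or which mice were littermates, so mice of 1 group may be less independent than n = 5 assumes. Libraries held between 13654890 and 13714805 counts, and CPM below are counts scaled to library size with TMM factors.

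BDNF is released by neurons, mainly excitatory ones, and acts through the receptor tyrosine kinase TrkB, the product of Ntrk2. NT-3, from Ntf3, acts mainly through TrkC, from Ntrk3. The p75 receptor, from Ngfr, binds all neurotrophins and in the adult forebrain is best known from cholinergic neurons. Sortilin, from Sort1, is a sorting receptor that binds proneurotrophins and works with p75. CREB, from Creb1, and CREM, from Crem, bind cAMP response elements. CREB responds to TrkB signals and also acts on Bdnf itself. In the amygdala this pathway is known for its part in fear learning.

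Bdnf lies on the forward strand of chromosome 2 (chr2:109674700-109727007, GRCm38), and its transcripts begin at several alternative first exons. From RefSeq's promoter table (GRCm38.p6), 7 upstream windows were kept for Bdnf, and windows were kept for 5 of the 8 members. A member without a kept window may still have an entry in that table. A pair of Bdnf windows is shown because the deposited counts sum over all first exons, so that these starts cannot be told apart in the values below. Each window is the 250 bases before 1 start, read on the forward strand, and capitals mark CGTCA, the reverse complement of TGACG, which is the core of the cAMP response element.
Bdnf, chr2:109674450-109674699: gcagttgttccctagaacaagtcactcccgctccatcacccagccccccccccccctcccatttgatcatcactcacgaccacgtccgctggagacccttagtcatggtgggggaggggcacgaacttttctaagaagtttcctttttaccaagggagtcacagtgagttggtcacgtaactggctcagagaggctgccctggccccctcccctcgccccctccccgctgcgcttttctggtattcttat
Bdnf, chr2:109692186-109692435: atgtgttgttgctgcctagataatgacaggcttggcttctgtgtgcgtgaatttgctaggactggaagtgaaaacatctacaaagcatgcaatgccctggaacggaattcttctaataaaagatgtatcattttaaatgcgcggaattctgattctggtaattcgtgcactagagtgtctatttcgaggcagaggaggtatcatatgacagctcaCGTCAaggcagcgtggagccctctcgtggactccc
Of the 7 Bdnf windows, only the one at chr2:109692186-109692435 held the core on either strand, beginning at position -35 from the start. The core occurred in 17.8% of 32851 promoter windows of RefSeq. The full palindromic element, TGACG followed by TCA, overlaps the core on both strands; it occurred in 1.55% of windows and in no Bdnf window. A match of letters is a description and not a measured site.

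**Figure D1:**
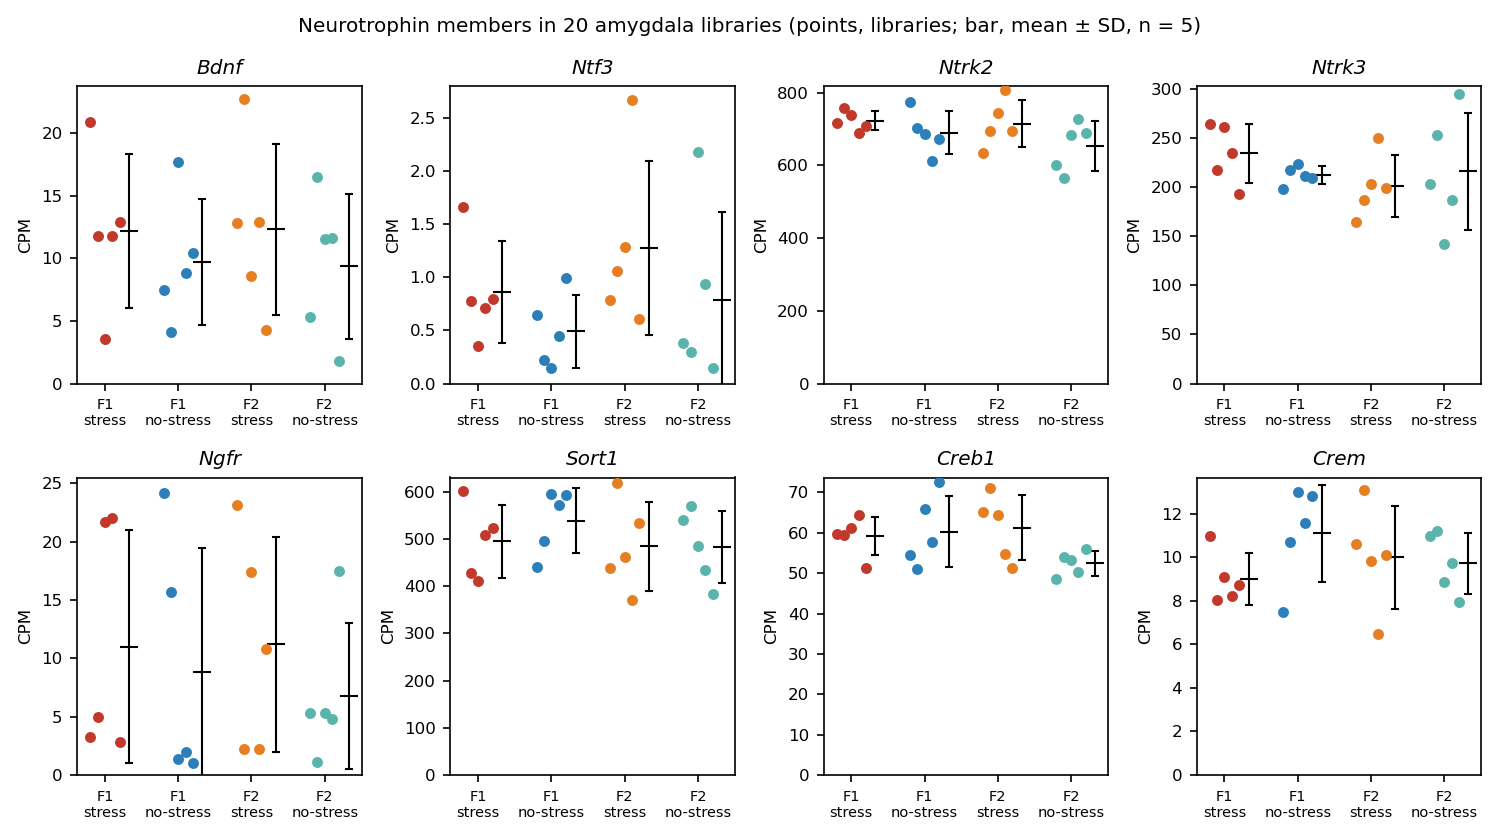
Level of each member in every library (points, CPM on linear axes from 0) for the stress and no-stress lineages of each generation, with the mean ± SD of 5 libraries as a bar (bars are cut at 0 where the SD passes it). Bdnf, Ntf3 and Ngfr spread widely inside every group, while Ntrk2 and Creb1 stay within narrow ranges, and stress and no-stress libraries overlap for each gene.

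No member was called as differing in any comparison, but their spread between mice of 1 group differed greatly. The test was edgeR's quasi-likelihood test in 1 fit of all libraries, with Benjamini-Hochberg adjustment over all tested genes and a call at an adjusted p below 0.05. In the F2, 0 of 8 members were called, against 7.92% of all tested genes (2.64% higher and 5.28% lower in the stress lineage). In the F1, 0 of 8 were called, against 0% of all genes. For the F2 lineage difference minus the F1 one, 0 of 8 were called, against 2.52% of all genes. Between generations 0 of 8 were called in either lineage, against 2% of all genes for F2 minus F1 in the no-stress lineage and 0.012% in the stress lineage. At an unadjusted p below 0.05 the count was 1 of 8 in the F2 lineage comparison, which was Creb1, and 0 in each of the others. Of all tested genes, 25.6% passed that threshold in the F2 lineage comparison and 6.16% in the F1 one. The share was 21.2% for the F2 lineage difference minus the F1 one. For F2 minus F1 it was 20.2% in the no-stress lineage and 6.99% in the stress lineage. DESeq2 and limma-voom likewise called 0 members in every comparison. At an unadjusted p below 0.05, both had 1 in the F2 lineage comparison and DESeq2 also had 1 for F2 minus F1 in the no-stress lineage. The shares of all genes under these tools are not given here, so their counts are no result about the members. The median log2 difference of the 8 in the F2 was 0.18, beside 0.001 over all genes.

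Some libraries stood apart in the regional genes of the punch, and this touches the members below. Replicate 20 of the F2 no-stress lineage had the lowest score of all 20 libraries for pallial excitatory neuron genes (1.52, where the score is the mean log2 CPM of a marker list), and replicate 14 of the F2 stress lineage had the lowest striatal and cholinergic scores (4.32 and 0.695). Slc17a7, the vesicular glutamate transporter of pallial neurons, ranged between 29.5 and 961 CPM. Of 14 marker lists, 13 had tested genes; for peripheral nerve glia 0 of 3 genes were tested. In such bulk samples, fewer cells of a type and less RNA per cell cannot be told apart.

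Bdnf differed 12.6-fold between the lowest and the highest library. In the F2 it stood at 12.8, 22.7, 8.61, 12.9 and 4.3 CPM in the stress lineage, against 5.3, 16.5, 11.5, 11.6 and 1.8 CPM in the no-stress lineage. In the F1 it stood at 20.9, 11.8, 3.57, 11.8 and 12.9 CPM in the stress lineage, against 7.5, 4.15, 17.7, 8.79 and 10.4 CPM in the no-stress lineage. The groups overlapped almost wholly: in each generation 1 stress-lineage library lay above every no-stress library, and the highest and lowest mice of a group were further apart than any pair of group means.

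Bdnf averaged 12.3 ± 6.83 CPM in F2 stress against 9.34 ± 5.79 in F2 no-stress mice, and 12.2 ± 6.14 in F1 stress against 9.71 ± 5.02 in F1 no-stress mice (SD, n = 5 each). In order of level, F2 stress stood highest, then F1 stress, F1 no-stress and F2 no-stress, and no neighbours in this order differed beyond their spread. The fitted log2 difference between stress and no-stress lineages was 0.39 ± 0.52 in the F2 (SE, edgeR adjusted p = 0.677) and 0.33 ± 0.52 in the F1 (adjusted p = 0.876). The 95% interval in the F2 ran between -0.691 and 1.471 on the log2 scale, which includes no difference and allows sizeable ones in either direction. An exact two-sided permutation test on mean log2 CPM gave p = 0.468 in the F2 and p = 0.619 in the F1, where 5 against 5 can give no p below 0.00794.

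The Bdnf difference depended on which libraries were kept. With replicate 14 of the F2 stress lineage and replicate 20 of the F2 no-stress lineage both left out, a choice made after the data were seen, the F2 log2 difference was 0.10 (edgeR adjusted p = 0.919). Over fits that left out 1 library each, it lay between 0.05 and 0.70 in the F2 and between 0.05 and 0.66 in the F1, with no call. The F2 difference minus the F1 difference was 0.06 ± 0.73 (adjusted p = 0.973). Bdnf overlaps an antisense gene, Gm45346, along 896 exonic bases. Group means of Gm45346 ran between 0.0141 CPM in F2 stress and 0.0441 CPM in F2 no-stress libraries. Crem shares 472 exonic bases with Gm6225 and Sort1 shares 338 with Gm12523, both also on the opposite strand. Whether the authors counted by strand is not given in the sources used here.

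Ntf3 was the lowest of the 8, at 0.144 to 2.67 CPM over the 20 libraries. In the F2 it read 0.784, 1.06, 1.29, 2.67 and 0.604 CPM in the stress lineage, against 0.379, 0.296, 2.18, 0.937 and 0.144 CPM in the no-stress lineage. In the F1 it read 1.66, 0.782, 0.357, 0.715 and 0.801 CPM in the stress lineage, against 0.643, 0.219, 0.151, 0.447 and 0.994 CPM in the no-stress lineage. The stress-lineage mean was higher in both generations, yet the libraries interleaved. The log2 difference was 0.70 ± 0.57 in the F2 (edgeR adjusted p = 0.468) and 0.80 ± 0.64 in the F1 (adjusted p = 0.757), on few reads per library. Leaving out 1 library moved the F2 value of Ntf3 between 0.24 (without replicate 14 of the stress lineage) and 1.53 (without replicate 18 of the no-stress lineage), and with replicates 14 and 20 both left out it was -0.02.

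Of the receptors, Sort1 and Ntrk2 were by far the most abundant per length. Divided by the length of all annotated exons, mean levels over 20 libraries were 66.1 CPM per kb for Sort1, 36 for Ntrk2, 7.14 for Ntrk3, 4.24 for Creb1, 2.74 for Ngfr, 1.75 for Bdnf, 1.69 for Crem and 0.499 for Ntf3. Sort1 ranked 1 and Ntrk2 ranked 2 in every library. Bdnf and Crem traded places between libraries, at ranks 5 to 7 each, and Ngfr took ranks 3 to 8. Exon lengths summed over all isoforms make these levels approximate.

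Ntrk2 encodes TrkB in a full-length form and in truncated forms that lack the kinase, which gene counts add together. In the F2 it stood at 633, 693, 745, 806 and 693 CPM in the stress lineage, against 601, 564, 682, 727 and 689 CPM in the no-stress lineage. In the F1 it stood at 717, 757, 739, 690 and 709 CPM in the stress lineage, against 774, 703, 686, 613 and 673 CPM in the no-stress lineage. Ranges overlapped in both generations, with 2 F2 stress libraries above every F2 no-stress library.

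Group means of Ntrk2 were close, at 714 ± 64.9 CPM in F2 stress against 653 ± 67.5 in F2 no-stress mice, and 722 ± 26.1 in F1 stress against 690 ± 58 in F1 no-stress mice (SD, n = 5 each). Neighbouring means differed by less than their SDs. The log2 difference was 0.13 ± 0.08 in the F2 (95% interval -0.046 to 0.306, edgeR adjusted p = 0.35) and 0.07 ± 0.08 in the F1 (adjusted p = 0.84). Ntrk2 varied little between mice: only 10.5% of tested genes had a smaller within-group SD of log2 CPM. The interval for TrkB transcripts is therefore narrow, where that for Bdnf is wide.

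Ntrk3 ranged between 142 and 295 CPM, and both extremes fell in the F2 no-stress lineage. It averaged 201 ± 31.5 CPM in F2 stress against 216 ± 59.4 in F2 no-stress mice, and 234 ± 30 in F1 stress against 212 ± 9.37 in F1 no-stress mice (SD, n = 5 each). In the F1, 3 stress-lineage libraries lay above every no-stress library, at 264, 261 and 234 CPM. The log2 difference was -0.11 ± 0.15 in the F2 (edgeR adjusted p = 0.697) and 0.14 ± 0.15 in the F1 (adjusted p = 0.805), and the F2 difference minus the F1 one was -0.25 ± 0.21 (adjusted p = 0.533).

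Ngfr was the most variable member, with a 24.4-fold span; 99.9% of tested genes had a smaller within-group SD. In the F2 it read 23.1, 2.27, 17.4, 2.25 and 10.8 CPM in the stress lineage, against 5.3, 1.11, 5.29, 4.76 and 17.5 CPM in the no-stress lineage. In the F1 it read 3.25, 4.97, 21.7, 22 and 2.84 CPM in the stress lineage, against 24.2, 15.7, 1.36, 2.01 and 0.994 CPM in the no-stress lineage. Every group held both high and low libraries, so 8 of the 20 lay between 10.8 and 24.2 CPM and the other 12 between 0.994 and 5.3 CPM.

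The Ngfr log2 difference was 0.72 ± 0.89 in the F2 (95% interval -1.16 to 2.59, edgeR adjusted p = 0.654) and 0.30 ± 0.88 in the F1 (adjusted p = 0.938). Leaving out 1 library moved the Ngfr value between 0.27 (without F2 stress replicate 11) and 1.44 (without F2 no-stress replicate 20) in the F2. In the F1 it moved between -0.12 (without stress replicate 4) and 1.12 (without no-stress replicate 6), turning its sign. With replicates 14 and 20 of the F2 both left out it was 1.70 in the F2 (adjusted p = 0.272), and replicate 20 held the highest no-stress value. Mean levels were 11.2 ± 9.22 CPM in F2 stress against 6.79 ± 6.24 in F2 no-stress mice, and 11 ± 9.98 in F1 stress against 8.85 ± 10.6 in F1 no-stress mice (SD, n = 5 each), with group means that differed by less than the SDs.

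Sort1 stood between 371 and 618 CPM in the 20 libraries. It averaged 485 ± 94.4 CPM in F2 stress against 483 ± 76.4 in F2 no-stress mice, and 495 ± 76.7 in F1 stress against 539 ± 68.7 in F1 no-stress mice (SD, n = 5 each). The log2 difference was 0.004 ± 0.14 in the F2 (95% interval -0.287 to 0.296, edgeR adjusted p = 0.991) and -0.12 ± 0.14 in the F1 (adjusted p = 0.825).

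Creb1 came closest to a call. In the F2 it stood at 65.1, 71.2, 64.3, 54.7 and 51.3 CPM in the stress lineage, against 48.5, 54.1, 53.3, 50.2 and 56 CPM in the no-stress lineage. In the F1 it stood at 59.8, 59.5, 61.2, 64.3 and 51.3 CPM in the stress lineage, against 54.5, 51.1, 66, 57.6 and 72.5 CPM in the no-stress lineage. In the F2, 3 stress-lineage libraries exceeded every no-stress library, though the ranges overlapped. In the F1, the no-stress libraries at 66 and 72.5 CPM exceeded every stress library, and the one at 51.1 CPM lay below them all.

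Mean Creb1 levels were 61.3 ± 8.14 CPM in F2 stress against 52.4 ± 3.03 in F2 no-stress mice, and 59.2 ± 4.82 in F1 stress against 60.3 ± 8.76 in F1 no-stress mice (SD, n = 5 each), so the F2 no-stress group was the low one. The F2 lineage difference was 0.23 ± 0.10 on the log2 scale (95% interval 0.017 to 0.435), with an unadjusted p of 0.0351 and an edgeR adjusted p of 0.159. A share of 25.6% of all tested genes also had an unadjusted p below 0.05 in that comparison. Against this, the F1 difference was -0.03 ± 0.10 (adjusted p = 0.952), and the F2 difference minus the F1 one was 0.25 ± 0.14 (adjusted p = 0.316). Between generations, Creb1 differed by -0.20 ± 0.10 for F2 minus F1 in the no-stress lineage (adjusted p = 0.262), a comparison that shares the F2 no-stress libraries.

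Crem encodes CREM activators and repressors and, from an inner promoter, the inducible repressor ICER; gene counts do not separate them. It stood between 6.47 and 13.1 CPM and averaged 10 ± 2.37 CPM in F2 stress against 9.74 ± 1.4 in F2 no-stress mice, and 9.01 ± 1.19 in F1 stress against 11.1 ± 2.23 in F1 no-stress mice (SD, n = 5 each). The log2 difference was 0.04 ± 0.17 in the F2 (edgeR adjusted p = 0.901) and -0.30 ± 0.17 in the F1 (adjusted p = 0.739). In the F1, the stress lineage ran between 8.03 and 11 CPM and overlapped the no-stress lineage, at 7.5 to 13 CPM. The F1 stress lineage also had a lower mean striatal score and a higher mean oligodendrocyte precursor score. No fit used the precursor score as a covariate. The adjusted fits that follow are given as values only, and what part these scores have in the difference was not tested. The F1 difference of Crem was -0.13 with pallial and striatal scores as covariates (edgeR adjusted p = 0.997) and -0.07 with 1 surrogate variable (adjusted p = 1).

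**Figure D2:**
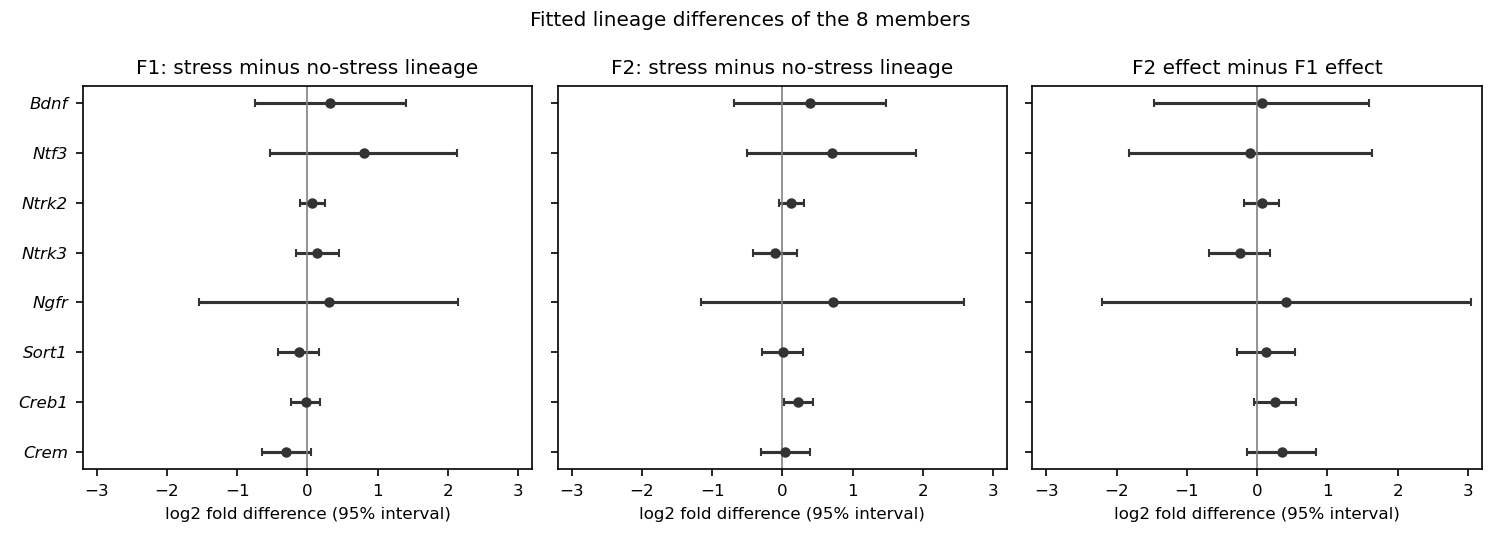
Fitted log2 difference (points) with its 95% interval (bars) for each member in the F1 lineage comparison, the F2 lineage comparison and the F2 difference minus the F1 one. Every interval but that of Creb1 in the F2 spans 0, and those of Bdnf, Ntf3 and Ngfr are the widest.

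Bdnf and Ngfr varied with markers of different neurons, and 3 other members had relations of their own to the marker lists. Each member was set against the mean log2 CPM of 13 marker lists over 20 libraries, after centring within the 4 groups. That made 104 relations, of which 13 passed with both Pearson's r and Spearman's rho (permutation test, Benjamini-Hochberg adjusted over 104).

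Bdnf tracked the pallial excitatory neuron list with r = 0.878 and rho = 0.851 (permutation test, adjusted p = 0.00035 and 0.00052, from the smallest p that 100000 resamples can give). Within single groups r was between 0.517 and 0.966, and without the 2 libraries farthest from the median score it was 0.761. Bdnf ran opposite to the GABA neuron list (r = -0.844, rho = -0.811; permutation adjusted p = 0.00035 and 0.0017) and to the cholinergic list (r = -0.671, rho = -0.77; permutation adjusted p = 0.017 and 0.0043). Without the 2 farthest libraries these were r = -0.834 and r = -0.754. Among single pallial genes, Neurod2, a transcription factor of excitatory neurons, had r = 0.934 with Bdnf, and Slc17a7 had r = 0.903. The library with the least Bdnf, replicate 20 of the F2 no-stress lineage at 1.8 CPM, was also the one with the lowest pallial score.

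Ngfr tracked the cholinergic list with r = 0.877 and rho = 0.904 (permutation test, adjusted p = 0.00035 and 0.00052), between 0.845 and 0.993 within groups and 0.916 without the 2 farthest libraries. The 8 libraries with high Ngfr had cholinergic scores of 3.89 or more, and the other 12 had scores of 3.65 or less. Inside these sets the relation was looser, with r = 0.571 over the 8 and r = 0.413 over the 12 libraries, on log2 CPM without centring. Chat, the acetylcholine-synthesising enzyme, ranged between 1.76 and 30.1 CPM, and Slc18a3, the vesicular acetylcholine transporter, was at 0 in replicate 14 of the F2 stress lineage. Ngfr also rose with the GABA list (r = 0.781, rho = 0.802; permutation adjusted p = 0.0024 and 0.0019; 0.786 without the 2 farthest) and with the oligodendrocyte list (r = 0.737, rho = 0.833; permutation adjusted p = 0.0013 and 0.0018; 0.763 without them), and ran opposite to the pallial list (r = -0.674, rho = -0.692; permutation adjusted p = 0.015 for both; -0.656 without them).

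**Figure D3:**
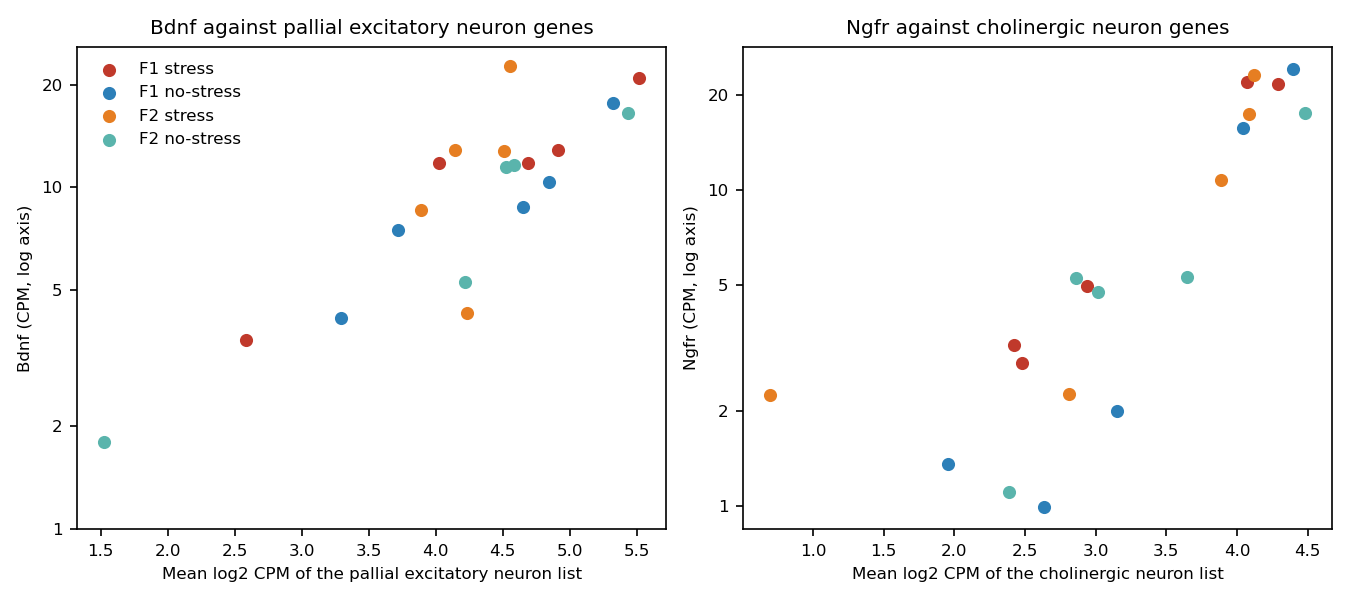
Bdnf against the score of pallial excitatory neuron genes (left) and Ngfr against the score of cholinergic neuron genes (right), 1 point per library coloured by group, with CPM on log axes and scores as mean log2 CPM. All 4 groups lie along the same trends, and the 8 libraries with high Ngfr are those with cholinergic scores of 3.89 or more.

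Sort1 rose with both the pallial list (r = 0.707, rho = 0.672; permutation adjusted p = 0.0024 and 0.015) and the striatal medium spiny neuron list (r = 0.711, rho = 0.725; permutation adjusted p = 0.019 and 0.015), and ran opposite to the GABA list (r = -0.719, rho = -0.674; permutation adjusted p = 0.017 and 0.029). Without the 2 farthest libraries these were 0.637, 0.664 and -0.588. Crem rose with the striatal list (r = 0.749, rho = 0.711; permutation adjusted p = 0.031 and 0.015; 0.724 without the 2 farthest) and ran opposite to oligodendrocyte precursor genes (r = -0.747, rho = -0.665; permutation adjusted p = 0.0067 and 0.029; -0.636 without them). Ntrk2 ran opposite to the striatal list (r = -0.719, rho = -0.792; permutation adjusted p = 0.019 and 0.0069; -0.742 without the 2 farthest). Ntf3, Ntrk3 and Creb1 had no relation that passed with both measures.

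In the F2, the mean pallial and cholinergic scores of the lineages differed by less than the spread of the no-stress lineage. The pallial score averaged 4.27 ± 0.28 in F2 stress against 4.06 ± 1.49 in F2 no-stress mice, and the cholinergic score 3.12 ± 1.46 in F2 stress against 3.28 ± 0.81 in F2 no-stress mice (SD, n = 5 each). In the F1, the striatal score averaged 6.66 ± 0.56 in stress against 7.46 ± 0.76 in no-stress mice. The oligodendrocyte precursor score averaged 5.6 ± 0.17 in stress against 5.33 ± 0.26 in no-stress mice. Both differences were larger than these SDs, the precursor one only narrowly. The F1 microglia score also differed by more than its SDs, at 4.528 ± 0.165 in stress against 4.768 ± 0.117 in no-stress mice. With the pallial and striatal scores as covariates, the F2 log2 difference was 0.38 for Bdnf (edgeR adjusted p = 0.274), 1.31 for Ngfr (adjusted p = 0.285) and 0.23 for Creb1 (adjusted p = 0.129). With the cholinergic score as a covariate, added after the data were seen, it was 0.71 for Ngfr (adjusted p = 0.316).

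**Figure D4:**
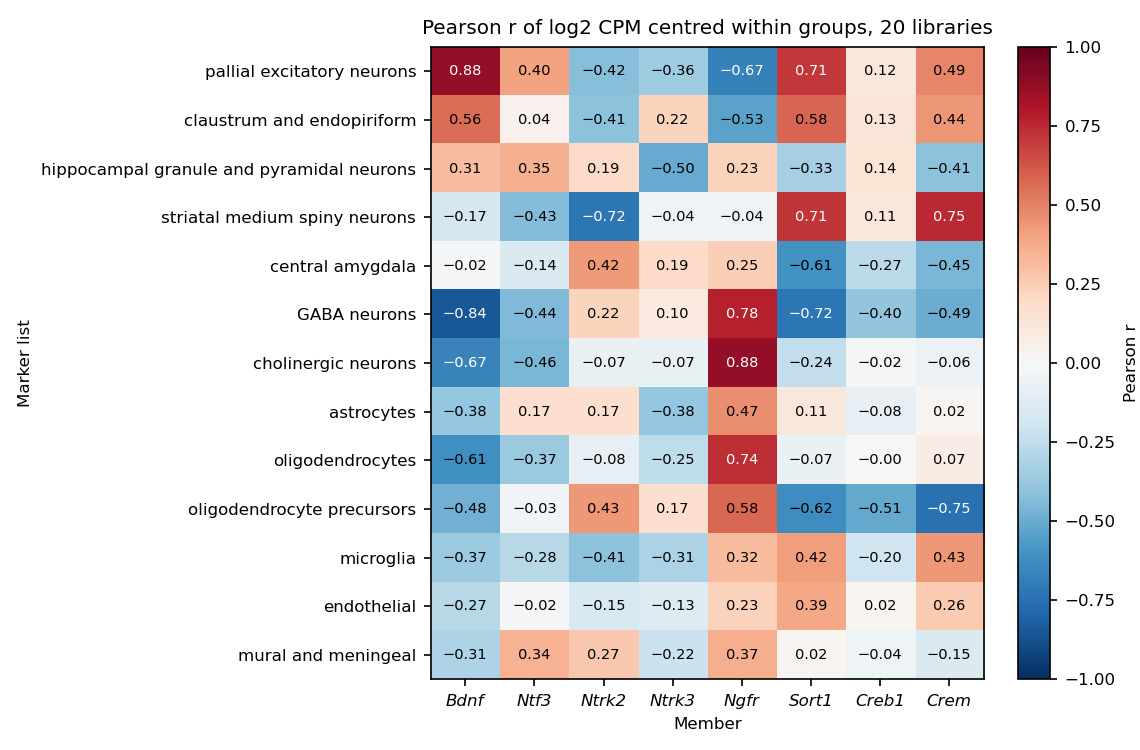
Pearson r between each member (columns) and each of 13 marker lists (rows) over 20 libraries, on log2 CPM centred within the 4 groups (red positive, blue negative). Bdnf with pallial genes (0.88) and Ngfr with cholinergic genes (0.88) are the strongest positive cells, and Creb1 and Ntrk3 have few strong ones.

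The members also differed in the genes whose pattern was most alike over the 20 libraries, given as Pearson r of centred log2 CPM. For Bdnf these were Nptxr (0.954), Mical2 (0.952), Sprn (0.951) and Gm21949 (0.943), and the most opposite were Ntsr2 (-0.913), Six3os1 (-0.902), Tacr1 (-0.886), Abat (-0.868) and Nfkb1 (-0.866). For Ngfr they were Lhx8 (0.946), AI606473 (0.941), Rassf4 (0.918), Gbx1 (0.912) and Kcnj5 (0.906). Lhx8 and Gbx1, transcription factors of forebrain cholinergic neurons, belong to the cholinergic list used above.

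For Ntrk2 they were Adcyap1r1 (0.88), 2900052N01Rik (0.869), Sparcl1 (0.854), Xpr1 (0.845) and Ptprz1 (0.843). Sparcl1 is abundant in astrocytes, although the astrocyte list itself had r = 0.165 with Ntrk2. For Ntf3 they were Neurod1 (0.84), Chrm3 (0.82), Tox3 (0.814), Nwd2 (0.795) and E030013I19Rik (0.793), and for Ntrk3 they were C230004F18Rik (0.946), Gm43389 (0.94), Zgrf1 (0.93), Nat10 (0.921) and Shisa7 (0.918). For Sort1 they were Arhgap32 (0.967), Cnksr2 (0.961), Fam212b (0.961) and Plcb1 (0.955), and for Crem they were Plcb1 (0.91), Actr2 (0.895), Mef2a (0.895), Arpc2 (0.889) and Actr3 (0.886). Plcb1 stood in both of these last lists, and Sort1 and Crem had r = 0.832 with each other. For Creb1 they were Slc35e2 (0.857), Agps (0.847), Zfp874a (0.847), Vps4b (0.836) and AC123954.1 (0.832). Bdnf and Ngfr ran opposite (r = -0.676), as did Ntrk2 with Sort1 (-0.652) and with Crem (-0.666).

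Around the members, 110 further genes of the pathway were followed in 11 lists, and 109 of them were tested. In the F2, 15 were called, or 13.8% against 7.92% of all genes, with 3 higher and 12 lower in the stress lineage; with an offset for GC content and transcript length none was. The median of the 109 log2 difference was -0.06, beside 0.001 over all genes. In the F1, 0 were called. As many as 883 of the 1324 genes called in the F2 were lower, so a majority of lower calls was no feature of these lists alone.

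Ntf5, which encodes the ligand NT-4, had at most 3 counts in any library and was not tested. Of the sorting receptors related to sortilin, 0 of 4 were called in the F2, against 7.92% of all genes. The log2 difference was -0.18 for Sorl1, -0.10 for Sorcs1, -0.41 for Sorcs2 (edgeR adjusted p = 0.0885) and 0.13 for Sorcs3.

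The CREB family and its coactivators had the largest share of calls among the 11 lists, 44.4% against 7.92% of all genes. Of its 9 genes, 3 fell and 1 rose in the F2 stress lineage. Without replicate 11 or 12 of the F2 stress lineage, or 16 or 17 of the F2 no-stress lineage, only Crtc3 of the 9 was called, and with the GC content and transcript length offset 0 were. Crtc3 stood at 12.5, 14.4, 14.8, 14.7 and 13.2 CPM in the stress lineage, against 18.7, 18.4, 17.9, 17.9 and 19.4 CPM in the no-stress lineage, with no overlap (log2 difference -0.40 ± 0.08, edgeR adjusted p = 0.0106). The F2 groups likewise did not overlap for 4.61% of all tested genes, and for 2.36% with the stress lineage lower. Crtc1 averaged 152 ± 36.1 CPM in F2 stress against 213 ± 29.1 in F2 no-stress mice (-0.49 ± 0.13, adjusted p = 0.0238), and Crtc2 averaged 18.1 ± 2.88 against 24.3 ± 4.96 CPM in the same order (-0.42 ± 0.13, adjusted p = 0.044). These CRTC proteins bind CREB and raise transcription from its sites. Atf2, a related bZIP factor, was higher at 143 ± 13.3 CPM in F2 stress against 117 ± 4.72 in F2 no-stress mice (0.28 ± 0.07, adjusted p = 0.0215), and Atf1 was not called (0.05, adjusted p = 0.784).

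Of 25 BDNF and CREB responsive genes, 2 fell in the F2 stress lineage, or 8%, a share near the 7.92% of all genes. Vgf, a neuropeptide precursor induced by neurotrophins, stood at 47.8, 60.3, 61.9, 72.8 and 55 CPM in F2 stress, against 96.2, 119, 96.3, 93.3 and 84.1 CPM in F2 no-stress mice, also without overlap (-0.72 ± 0.14, edgeR adjusted p = 0.0106). Junb, an immediate early transcription factor, averaged 6.57 ± 1.32 CPM in F2 stress against 15.6 ± 5.16 in F2 no-stress mice (-1.24 ± 0.23, adjusted p = 0.00739). Of 9 Bdnf regulators, only Npas4 was called, or 11.1% against 7.92% of all genes. This activity-induced factor averaged 10.6 ± 2.15 CPM in F2 stress against 21.3 ± 4.96 in F2 no-stress mice (-1.0 ± 0.25, adjusted p = 0.023).

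Among Trk adaptors, 3 of 16 fell (Sh2b1, -0.44; Shc2, -0.41; Sh2b3, -0.33) and 1 rose (Crk, 0.29), while Kidins220 (0.04), Frs2 (0.09) and Shc3 (-0.21) were not called. In the Ras-MAPK list 2 of 19 fell (Map2k2, the kinase MEK2, -0.66; Mapk7, the kinase ERK5, -0.53) and 1 rose (Rap1a, a small GTPase, 0.30). In ligand processing 1 of 8 fell, Furin, a protease that cleaves proneurotrophins, at 18.7 ± 2.88 CPM in F2 stress against 28.3 ± 4.24 in F2 no-stress mice (-0.59 ± 0.13, edgeR adjusted p = 0.0143). In the PI3K-Akt list 0 of 10 and among the partners of p75 0 of 8 were called. The shares called were 25% of Trk adaptors, 15.8% of the Ras-MAPK list and 12.5% of ligand processing, beside 7.92% of all genes. In the lists of 8 or 10 genes, 0 or 1 call lies near that share.

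Several of these genes were set apart by the F2 no-stress group. For F2 minus F1 in the no-stress lineage 4 pathway genes were called, or 3.67% against 2% of all genes, and these were higher in the F2, as were 246 of the 335 genes called in all: Npas4 (1.59 ± 0.26, edgeR adjusted p = 0.0212), Junb (1.13 ± 0.22, adjusted p = 0.0235), Furin (0.53 ± 0.13, adjusted p = 0.0462) and Crtc3 (0.32 ± 0.08, adjusted p = 0.0456). That comparison shares the F2 no-stress libraries with the F2 lineage one. Crtc3 averaged 15 ± 1.46 CPM in F1 stress against 14.8 ± 0.87 in F1 no-stress mice, both near the F2 stress mean of 13.9 ± 1.02 CPM (SD, n = 5 each).

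The called pathway genes also differed in base composition. Median GC content was 40.5% for the 3 higher, 57.1% for the 12 lower and 51.6% for those not called, beside 43%, 57.8% and 49.2% over all genes in the same classes. With each library's trend on GC content and transcript length taken out, 0 of the 109 pathway genes were called by edgeR (14 at an unadjusted p below 0.05), and 8 genes were called in all. Under that offset the log2 difference was -0.10 for Crtc3 (adjusted p = 0.59), -0.19 for Vgf (adjusted p = 0.526), -0.77 for Junb (adjusted p = 0.065) and -0.76 for Npas4 (adjusted p = 0.191). Creb1, at 39.6% GC, had 0.14 there (adjusted p = 0.466). In a fit of the F2 libraries alone the pathway count was 0 as well (22 at an unadjusted p below 0.05). Log2 differences there were close to those of the full fit: -1.24 for Junb, -0.71 for Vgf and -0.40 for Crtc3. The number of all genes called in that fit is not given here. Nor is the share of all genes at an unadjusted p below 0.05 in either fit, so these counts show no trait of the pathway alone. The part of base composition in the F2 pathway calls was not tested further.

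**Figure D5:**
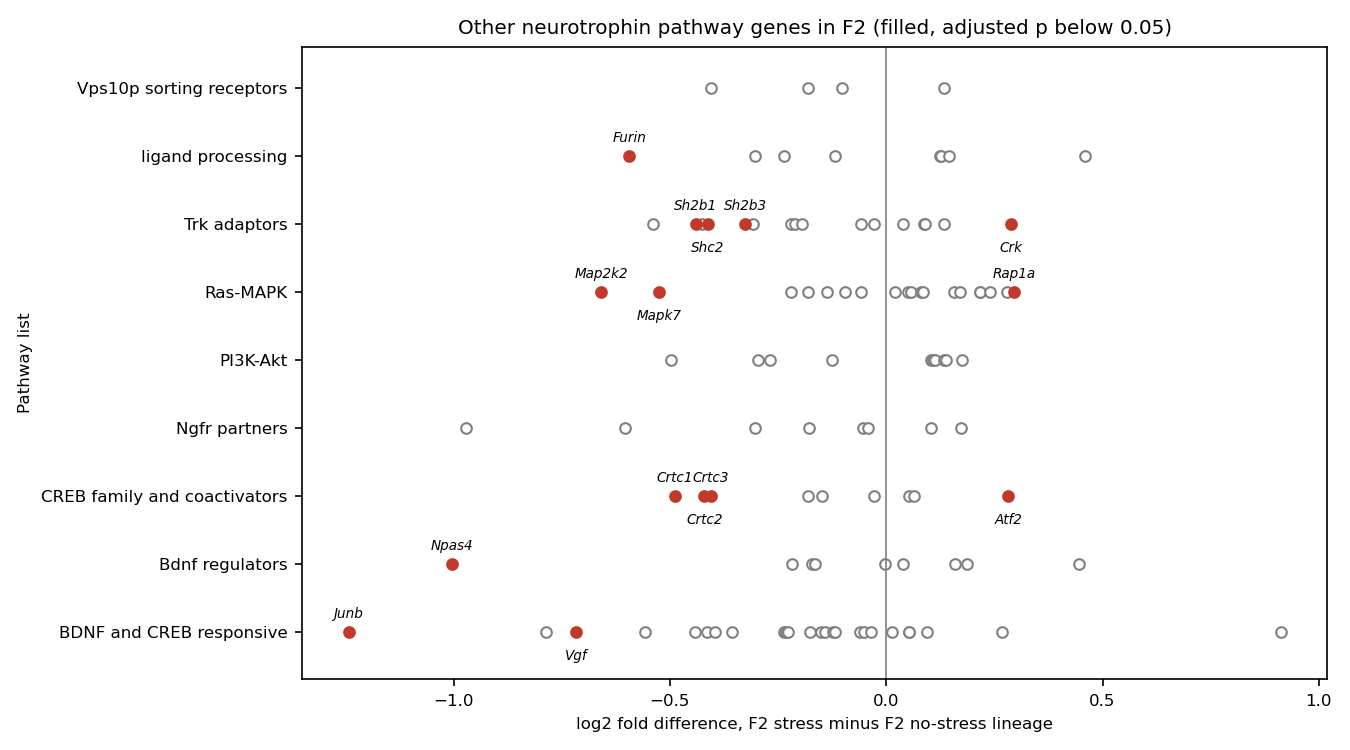
Log2 difference between F2 stress and F2 no-stress lineages for 107 tested pathway genes, 1 row for each of the 9 lists with more than 1 tested gene; filled red points with names have an adjusted p below 0.05 and open grey points do not. The 12 lower genes lie left of 0, with Junb at -1.24 farthest out, and the 3 higher ones, Atf2, Crk and Rap1a, lie near 0.3.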

How the data were processed

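Poly-A RNA of 20 punches was sequenced with a stranded kit, per the labels' protocols. The submitters' processing notes name STAR 2.5.3a, a read aligner, and the build GRCm38; how reads were counted is not given in the sources used here. Per gene and mouse, the authors deposited whole-number counts. Totals of 13654890 to 13714805 are nearly equal for a reason not stated in the labels, so the original depth is unknown. No 2 libraries agreed within sampling noise. Replicate numbers 1 to 20 are unique and pair no mice.

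Tests used edgeR 4.0.16 in R 4.3.3 (TMM factors, filterByExpr, robust quasi-likelihood fit of 4 group means), checked on simulated data, with DESeq2 1.42.0, limma 3.58.1 and sva 3.50.0 as alternatives. Log2 CPM used a prior count of 2. Gene lengths, GC content and overlaps came from GENCODE annotation of GRCm38, whose identifiers and names matched for all 8 members. Pathway genes were named where called, up to 4 per list by smallest p, or from a preset list of 12; for each member the 5 genes with the highest r were taken. Some genes that this rule takes are not reported here. The members, lists and tests were chosen with earlier results of these data known.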

Additional observations from a re-analysis of the deposited data

Results flagged for a closer look

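One member library stood far from its group. In replicate 20 of the F2 no-stress lineage Ngfr was at 17.5 CPM, with the next of the 5 at 5.3 and the lowest at 1.11 CPM. Of 32 groups examined (8 genes in 4 groups) it was the 1 so marked, and chance marks about 1 in 20 groups. That library also had the highest cholinergic score of its group, 4.48.

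For 3 of the 109 tested pathway genes the lineage difference itself differed between generations (edgeR, F2 difference minus F1 difference, log2). That was 2.75%, a share near the 2.52% of all genes called. The value was -1.34 for Junb (adjusted p = 0.0379), -0.85 for Vgf (adjusted p = 0.0354) and -0.74 for Map2k2 (adjusted p = 0.0425). Their GC contents were 62.6%, 64.1% and 60.4%.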

How the results depend on the processing

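No member was called in any comparison under any of the settings tried, and no alternative turned the direction of the Bdnf permutation comparison. The count of pathway genes called in the F2, 15, was 0 with the GC content and transcript length offset, 0 in a fit of the F2 groups only, 9 with no low-count filter and 23 with the pallial and striatal scores as covariates. Leaving out 1 library gave 4 to 21: 4 without replicate 11 of the F2 stress or 17 of the F2 no-stress lineage, 5 without replicate 12, 6 without 13, 7 without 16. Crtc3, Junb, Map2k2 and Vgf were called in each of those 10 fits. Other tools gave 18 (DESeq2) and 16 (limma-voom), each with all 15. With replicates 14 and 20 both left out, chosen after seeing the data, the count was 22. The number called over all genes also changed with the setting and is not given beside these counts. They therefore show no trait of the pathway alone. No paired analysis was possible because the groups share no replicate numbers. The 5 mice per group limit what could be seen for Bdnf, Ntf3 and Ngfr, whose spread within groups was wide.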
